A study of Homo sapiens with 12 samples.

Results

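The desmosome genes described here are DSG2, DSG3, DSC2, DSC3, PKP1, PKP2, PKP3, JUP, DSP and PERP, chosen by symbol from the count table, 10 of its 25382 symbols. They were measured by RNA sequencing in Cal27, an established human line of squamous tongue carcinoma, labelled wild type. All cells grew on polyacrylamide gels coated with collagen, for 5 days of conditioning and 1 day after replating. The stiff-to-soft cells were conditioned at 20 kPa and replated at 0.48 kPa. The LPA-to-soft cells were conditioned at 0.48 kPa with lysophosphatidic acid (LPA), a signalling lipid with G protein-coupled receptors, and were replated at 0.48 kPa in its absence. The LPA-to-FAKi cells were conditioned in that way too, but replated at 0.48 kPa with a FAK inhibitor. FAK, focal adhesion kinase, is a kinase of integrin adhesions. The soft-to-soft cells spent both phases at 0.48 kPa with neither agent and are the control. Each condition has 3 libraries, numbered 1 to 3, and the series counts LPA-to-soft and stiff-to-soft cells as having learned and LPA-to-FAKi and soft-to-soft cells as not.

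Desmosomes are junctions that anchor the keratin filaments of neighbouring epithelial cells to each other. Desmogleins (DSG) and desmocollins (DSC) are cadherins that span the membrane and bind those of the next cell, plakoglobin (JUP) and plakophilins (PKP) bind their tails, and desmoplakin (DSP) ties this plaque to keratin. PERP is a tetraspan membrane protein needed for desmosomes of stratified epithelia, and the forms DSG2, DSC2 and PKP2 are found in simple epithelia too, while DSG3, DSC3 and PKP1 belong to stratified ones.

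Total counts ran from 62953957 to 122311183 per library, and each desmosome gene had between 1739 and 118322 counts in a library, so counting error was small beside the spread between libraries. All 10 passed the filter on low counts that left 15437 genes for the tests. Low counts (1 to 19) were even numbers in 42.9% of cases in soft-to-soft replicate 1, in 42.2% in soft-to-soft replicate 2 and in 96.8% to 97.8% of cases in the remaining 10 libraries. Whether a count stands for a read or a fragment is not given in the sources used here, so it may not stand for the same in both kinds of library. Library scaling removes a constant factor, and each result against soft-to-soft is also given without these libraries where that changes a call. Whether replicates were separate cultures is not stated in the labels, and a p-value here measures the spread among these libraries only, which may be technical. Of 6 epithelial markers none was under 1 CPM (counts scaled to the library's size by TMM) in all libraries, and their summed level was 4681 to 6592 CPM in stiff-to-soft, 5187 to 7452 CPM in LPA-to-soft, 4757 to 6386 CPM in LPA-to-FAKi and 6936 to 8126 CPM in soft-to-soft libraries. CD3E was at 0 in all 12 libraries, and PTPRC of leukocytes, PECAM1 of endothelium and COL3A1 of fibroblasts stayed under 0.1 CPM. Other markers on the lists were present in every library: CD68 had 9.49 to 41.9 CPM, CDH5 4.40 to 36.3 CPM and COL1A1 12.7 to 30.9 CPM. The summed level of 6 leukocyte markers was 18.6 to 46.2 CPM in LPA-to-FAKi libraries and 14.5 to 18.7 CPM in soft-to-soft libraries. That of 6 endothelial markers was 11.1 to 37.8 CPM in stiff-to-soft libraries, 5.74 to 15.9 CPM in LPA-to-FAKi libraries and 11.1 to 22.0 CPM in soft-to-soft libraries. That of 6 fibroblast markers was 14.6 to 36.4 CPM and that of 4 melanocyte markers 0.615 to 1.29 CPM over all libraries. Of these markers, 4 of 6 for leukocytes, 4 of 6 for endothelium, 2 of 6 for fibroblasts and 3 of 4 for melanocytes were under 1 CPM in all libraries. The part of these markers in the results below was not tested. Whole cultures were sequenced, so fewer cells that express a gene and less of its RNA per cell cannot be told apart.

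The 4 cadherin genes lie in one cluster on chromosome 18, in the order DSC3, DSC2, DSC1, DSG1, DSG4, DSG3, DSG2 among the protein-coding genes, while PKP1 is on chromosome 1, PKP3 on 11, PKP2 on 12, JUP on 17, and DSP and PERP on 6. DSG3 and DSG2 are thus neighbours, and their results differ. With replicate number as a block in the test, DSG3 was called lower after stiff conditioning and DSG2 was not. Without the block neither passed. The 250 bases before the RefSeq start (GRCh38.p14, a later build than the hg19 of the counts) are shown for this pair, PKP1 and PERP. PKP1 and PERP are the other genes that passed in that comparison with the block. Each sequence runs 5′ to 3′ on the strand of the gene. DSG3 is on the plus strand (chr18:31447491-31447740), DSG2 on the plus strand (chr18:31497927-31498176), PKP1 on the plus strand (chr1:201283256-201283505) and PERP on the minus strand (chr6:138107420-138107669). Capitals mark the motifs searched for.
DSG3: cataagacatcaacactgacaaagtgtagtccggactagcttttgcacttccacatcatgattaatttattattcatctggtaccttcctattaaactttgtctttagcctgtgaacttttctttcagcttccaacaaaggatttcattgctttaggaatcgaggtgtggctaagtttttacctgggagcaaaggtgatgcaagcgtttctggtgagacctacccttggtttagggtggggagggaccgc
DSG2: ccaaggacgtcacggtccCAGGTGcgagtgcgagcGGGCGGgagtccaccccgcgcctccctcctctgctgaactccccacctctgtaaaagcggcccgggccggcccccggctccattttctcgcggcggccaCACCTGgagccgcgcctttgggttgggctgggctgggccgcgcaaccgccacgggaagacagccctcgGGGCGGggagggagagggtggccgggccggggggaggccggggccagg
PKP1: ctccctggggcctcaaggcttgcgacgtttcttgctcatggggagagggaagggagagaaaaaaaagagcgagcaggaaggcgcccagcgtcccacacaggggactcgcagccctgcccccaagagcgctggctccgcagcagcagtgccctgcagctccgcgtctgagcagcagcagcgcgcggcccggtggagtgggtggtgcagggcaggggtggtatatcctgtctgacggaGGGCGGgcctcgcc
PERP: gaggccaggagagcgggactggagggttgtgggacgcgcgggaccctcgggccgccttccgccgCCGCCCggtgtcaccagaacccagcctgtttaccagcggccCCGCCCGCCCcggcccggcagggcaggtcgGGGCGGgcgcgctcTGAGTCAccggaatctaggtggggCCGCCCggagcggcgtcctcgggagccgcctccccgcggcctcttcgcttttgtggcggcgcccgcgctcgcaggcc
Searched on both strands were the AP-1 site TGANTCA, the E-box CAGGTG that SNAI factors bind, the TEAD site GGAATG, the GC box GGGCGG of SP and KLF factors, the GRHL site ACCGGTT and the TATA box TATAAA. Over 35116 promoters of this length, 6.57% held the AP-1 site, 17.5% the E-box, 11.9% the TEAD site, 42.6% the GC box, 0.626% the GRHL site and 10.7% the TATA box. A sequence was found for 8 of the 10 genes, with none given for PKP2 and PKP3. None of the 6 motifs was in the DSG3 window, whose GC content was 42.8% against a median of 58.0% over all promoters. The DSG2 window had 75.2% GC, 2 E-boxes and 2 GC boxes, and the PKP1 window had 67.6% GC and 1 GC box, 14 bases before the start. The PERP window had 77.2% GC, 5 GC boxes, one pair of them overlapping, and the AP-1 site 101 bases before the start. Of the genes whose windows are not shown, DSC3 had none of the 6 motifs either, at 60.4% GC. DSC2 and JUP each had windows for 2 starts. The DSP window and 1 DSC2 window held both the E-box and the GC box, as that of DSG2 did. The other DSC2 window held GC boxes and no E-box. Of the JUP windows, 1 held only GC boxes and 1 only E-boxes. A link between motifs and levels was not tested. A match is a match of letters only, and no binding was measured.

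JUP, PERP and PKP3 were the most abundant of the 10 genes after division by exon length. Per kilobase of exon (kb), JUP averaged 244 CPM ± 49.7 (SD over 12 libraries), PERP 142 ± 37.7 and PKP3 79.3 ± 9.23. DSP followed with 53.1 ± 18.7 CPM per kb and PKP1 with 36.6 ± 21.0. The cadherins were lower than these, with DSG2 at 19.7 ± 1.89 CPM per kb, DSG3 at 16.7 ± 9.45, DSC3 at 11.1 ± 5.82 and DSC2 at 2.84 ± 1.34, and PKP2 stood between them at 11.9 ± 1.09. JUP exceeded PERP, PERP exceeded PKP3, DSP exceeded PKP1 and DSC3 exceeded DSC2 in all 12 libraries. The neighbours DSG2 and DSG3 did not separate, since DSG2 was higher in 8 of 12 libraries, nor did DSG3 and PKP2 (6 of 12) or PKP2 and DSC3 (8 of 12). The order per kb rests on merged exon lengths, which may differ from those behind the counts. They were 12495 bases for DSC2 and 7056 for DSC3. Before division by length, DSC3 averaged 78.6 CPM and DSC2 35.4 CPM. DSP, at 520.4 CPM, then stood above PKP3, at 222.7 CPM. The range over libraries was narrow for PKP2, with the highest library 1.32 times the lowest, for DSG2 (1.40 times) and for PKP3 (1.42 times). It was wide for PKP1 (6.67 times), DSG3 (4.52 times), DSC2 (4.23 times) and DSC3 (4.15 times).

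**Figure D1:**
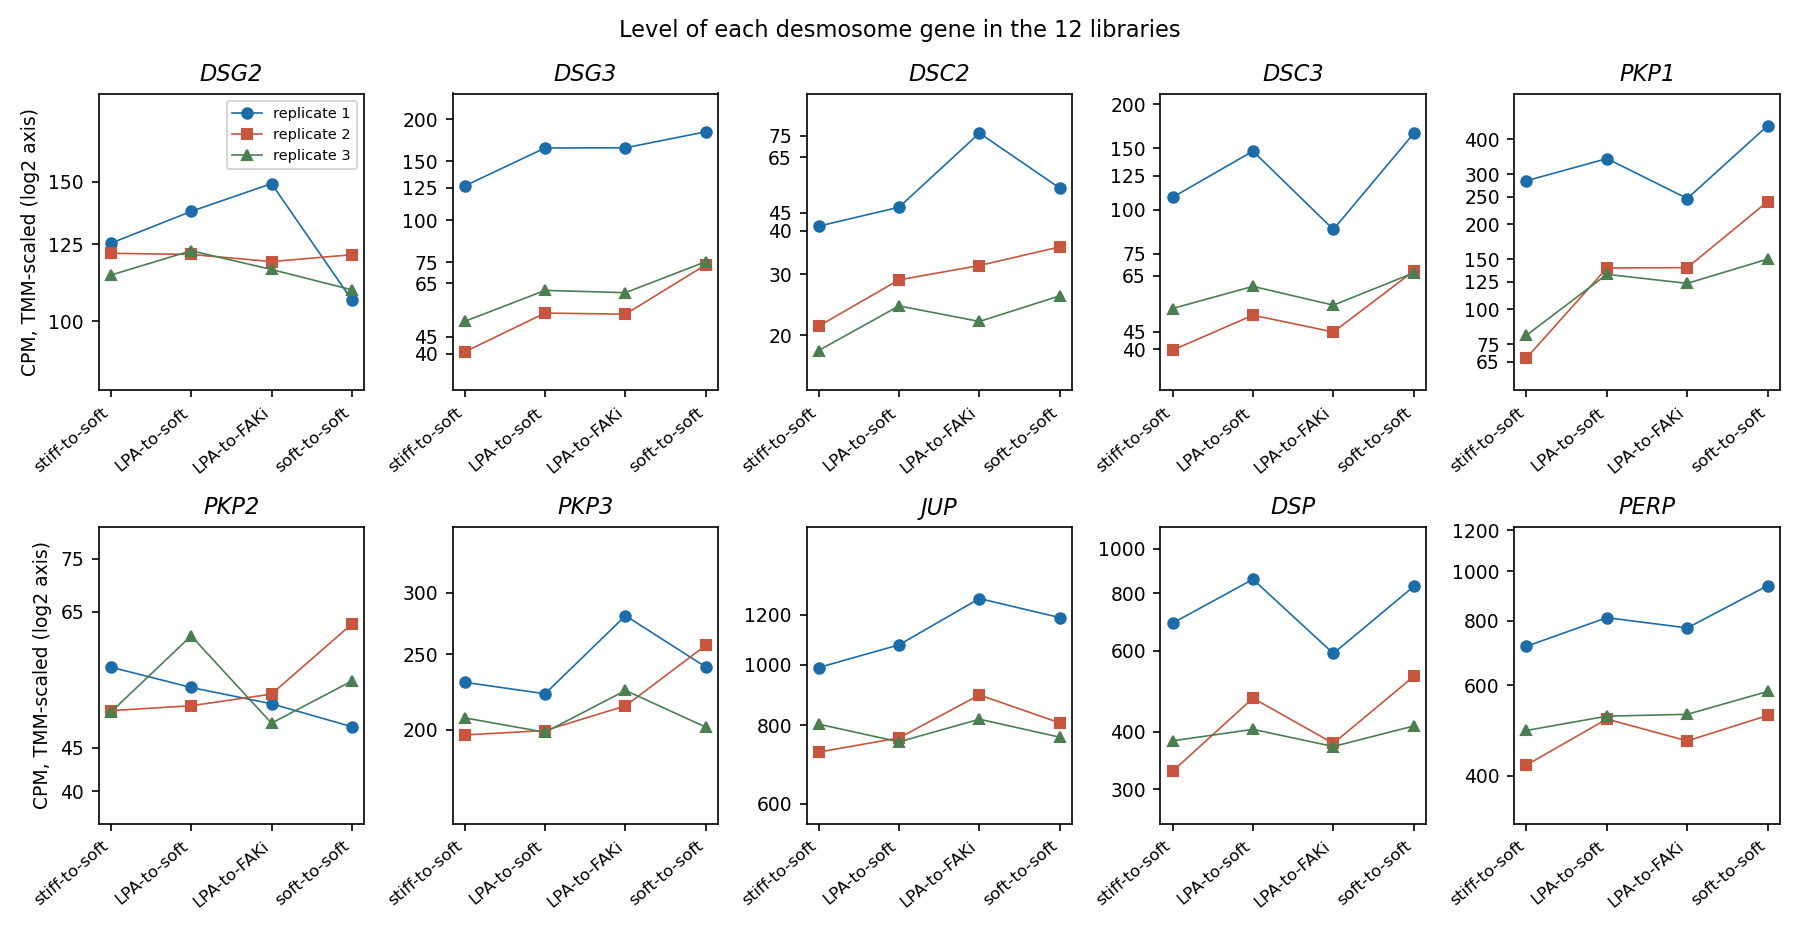
Level of each gene in TMM-scaled CPM (y axis, log2 scale, own range in each panel) in the 4 conditions, 1 point per library, with lines joining libraries of the same replicate number. Replicate 1 lies above replicates 2 and 3 in every condition for DSG3, DSC2, DSC3, PKP1, JUP, DSP and PERP, and within a number DSG3 is lowest in stiff-to-soft and highest in soft-to-soft.

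Much of that spread followed replicate number and not condition. The mean of the 4 number 1 libraries over the mean of the 4 number 3 libraries was 2.71 for PKP1, 2.58 for DSG3, 2.41 for DSC2, 2.19 for DSC3, 1.89 for DSP, 1.53 for PERP and 1.44 for JUP, against 1.17 for PKP3, 1.12 for DSG2 and 0.976 for PKP2. In edgeR's quasi-likelihood test over the 3 numbers, with Benjamini-Hochberg adjustment over all 15437 genes, these first 7 genes passed 0.05 (adjusted p from 1.91e-07 for DSG3 to 0.000124 for PKP1). PKP3 (adjusted p = 0.0595), DSG2 (0.197) and PKP2 (0.888) did not. Since 52.3% of all genes passed the same test, 7 of 10 is not far from the background. Of the sum of squares of log2 CPM, replicate number held 89.1% for DSG3, 87.6% for PERP, 83.6% for JUP and 81.6% for DSC3, against 47.2% over all genes together. It held 37.9% for PKP3, 24.5% for DSG2 and 2.81% for PKP2. Condition held 33.8% for DSG2, 32.05% for PKP3 and 26.1% for PKP1, against 22.5% over all genes. Its share was below 22.5% for the remaining genes, down to 10.2% for DSG3. With the same-numbered libraries taken as pairs, which their correlation allowed, condition can be read within a number, and this is done below.

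**Figure D2:**
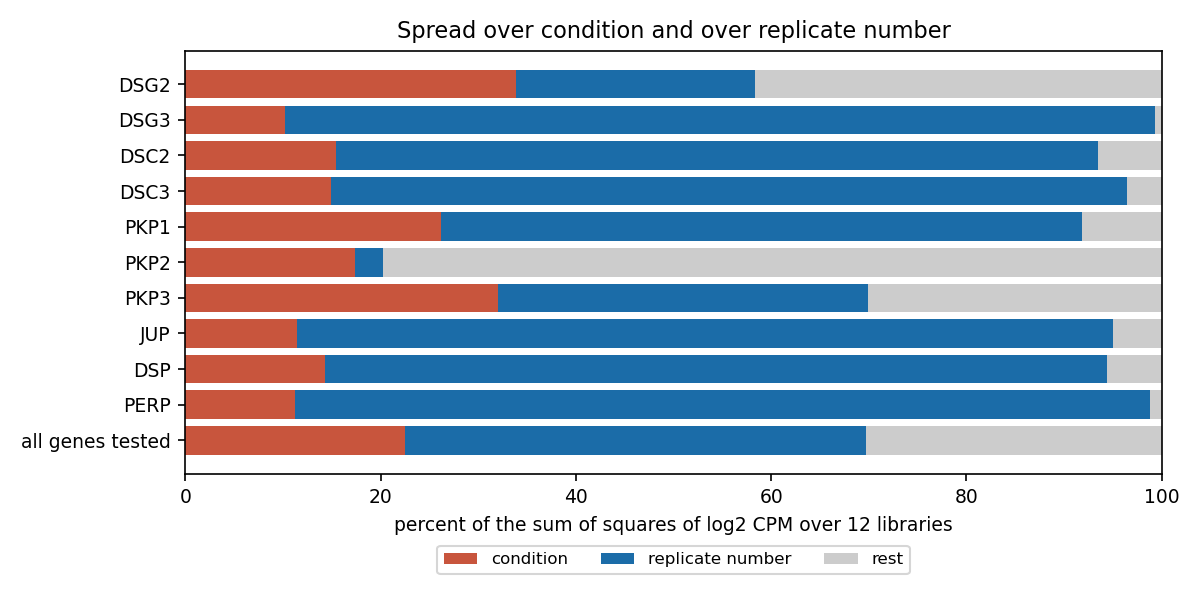
Share of the sum of squares of log2 CPM over 12 libraries (x axis, percent) held by condition, by replicate number and by the rest, for each gene and for all 15437 genes tested together. Replicate number holds between 65.7% (PKP1) and 89.1% (DSG3) for 7 of the genes, while for PKP2 it holds 2.81%.

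With replicate number as a block, DSG3, PKP1 and PERP RNA was called lower in stiff-to-soft cells than in soft-to-soft cells. Without the block none of them passed. DSG3, a desmoglein of stratified epithelia and the main target of antibodies in pemphigus vulgaris, had 126.5, 40.6 and 50.0 CPM in stiff-to-soft replicates 1, 2 and 3, against 183.4, 73.7 and 75.3 CPM in soft-to-soft replicates 1, 2 and 3. The groups overlapped, because both number 1 libraries were high, but the stiff-to-soft library was the lower in each pair. With replicate number as a block its log2 fold change was -0.66 ± 0.071 (SE, 95% interval -0.82 to -0.51, adjusted p = 0.004, edgeR), and the call held in each of 12 fits that left out a library (adjusted p from 0.0031 to 0.0357). Without the block the log2 fold change was -0.61 ± 0.61 and the adjusted p was 1.00.

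PKP1, the plakophilin that clusters desmosomal proteins in the upper layers of stratified epithelia, had 285.0, 67.0 and 80.7 CPM in stiff-to-soft replicates 1, 2 and 3, against 446.9, 240.5 and 150.3 CPM in soft-to-soft replicates 1, 2 and 3. It was lower in each pair, with log2 differences of -0.65, -1.84 and -0.90 in numbers 1, 2 and 3, and again the groups overlapped. The log2 fold change with the block was -1.10 ± 0.20 (95% interval -1.55 to -0.66, adjusted p = 0.042, edgeR), the largest of the 10 genes. PKP1 stayed called without stiff-to-soft replicate 1, LPA-to-FAKi replicate 1 or LPA-to-FAKi replicate 3, and lost its call without any one of the other 9 libraries (adjusted p up to 0.214). PERP had 714.3, 419.9 and 490.1 CPM in stiff-to-soft replicates 1, 2 and 3, against 936.9, 524.2 and 583.6 CPM in soft-to-soft replicates 1, 2 and 3. Its pairs differed by similar amounts, and its log2 fold change with the block was -0.32 ± 0.060 (95% interval -0.45 to -0.19, adjusted p = 0.0449, edgeR). PERP stayed called without LPA-to-FAKi replicate 1 and lost its call without any one of the other 11 libraries (adjusted p up to 0.237). Without the block the log2 fold changes were -0.95 ± 0.60 for PKP1 and -0.33 ± 0.29 for PERP, with an adjusted p of 1.00 for each.

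The remaining genes did not pass the test in this comparison. DSC3, the desmocollin that goes with DSG3 in basal layers, had 108.6, 39.8 and 52.3 CPM in stiff-to-soft replicates 1, 2 and 3, against 165.2, 66.9 and 66.1 CPM in soft-to-soft replicates 1, 2 and 3. It was lower in each pair and its log2 fold change with the block, -0.57 ± 0.11, lay just outside the threshold (adjusted p = 0.0545, edgeR). DSC2 (-0.55 ± 0.14, adjusted p = 0.131) and DSP (-0.35 ± 0.10, adjusted p = 0.196) were lower in each pair as well. With the block JUP, PKP3, PKP2 and DSG2 had log2 fold changes between -0.14 and 0.10. Their 95% intervals together ran from -0.33 to 0.28, so a change as large as that of DSG3 lay outside each of them in this fit. Without the block the interval of JUP ran from -0.64 to 0.37 and took in the DSG3 value of that fit (-0.61). In all, 3 of 10 genes fell with the block, where 0.343% of all genes fell and 0.583% changed in either direction. Without the block 0 of 10 passed, as did 0.0% of all genes. The unadjusted p was under 0.05 for 6 of 10 genes with the block, against 10.2% of all genes. Without it that held for 0 of 10, against 1.94% of all genes. The median log2 fold change of the 10 genes with the block was -0.34, and over all genes -0.0023. In 3 of 3 pairs 6 genes (DSG3, DSC2, DSC3, PKP1, DSP and PERP) were lower and 1, DSG2, was higher, where 15.7% and 14.6% of all genes were. Without soft-to-soft replicates 1 and 2, which leaves 1 soft-to-soft library that is assumed to vary like the other groups, none of the 10 passed with the block. DSG3 was then at -0.63 ± 0.088 (adjusted p = 0.081), PKP1 at -0.84 ± 0.26 (0.664) and PERP at -0.30 ± 0.095 (0.707), on the log2 scale. None passed either when only the libraries of these 2 conditions were fitted with the block (DSG3 adjusted p = 0.0992).

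**Figure D3:**
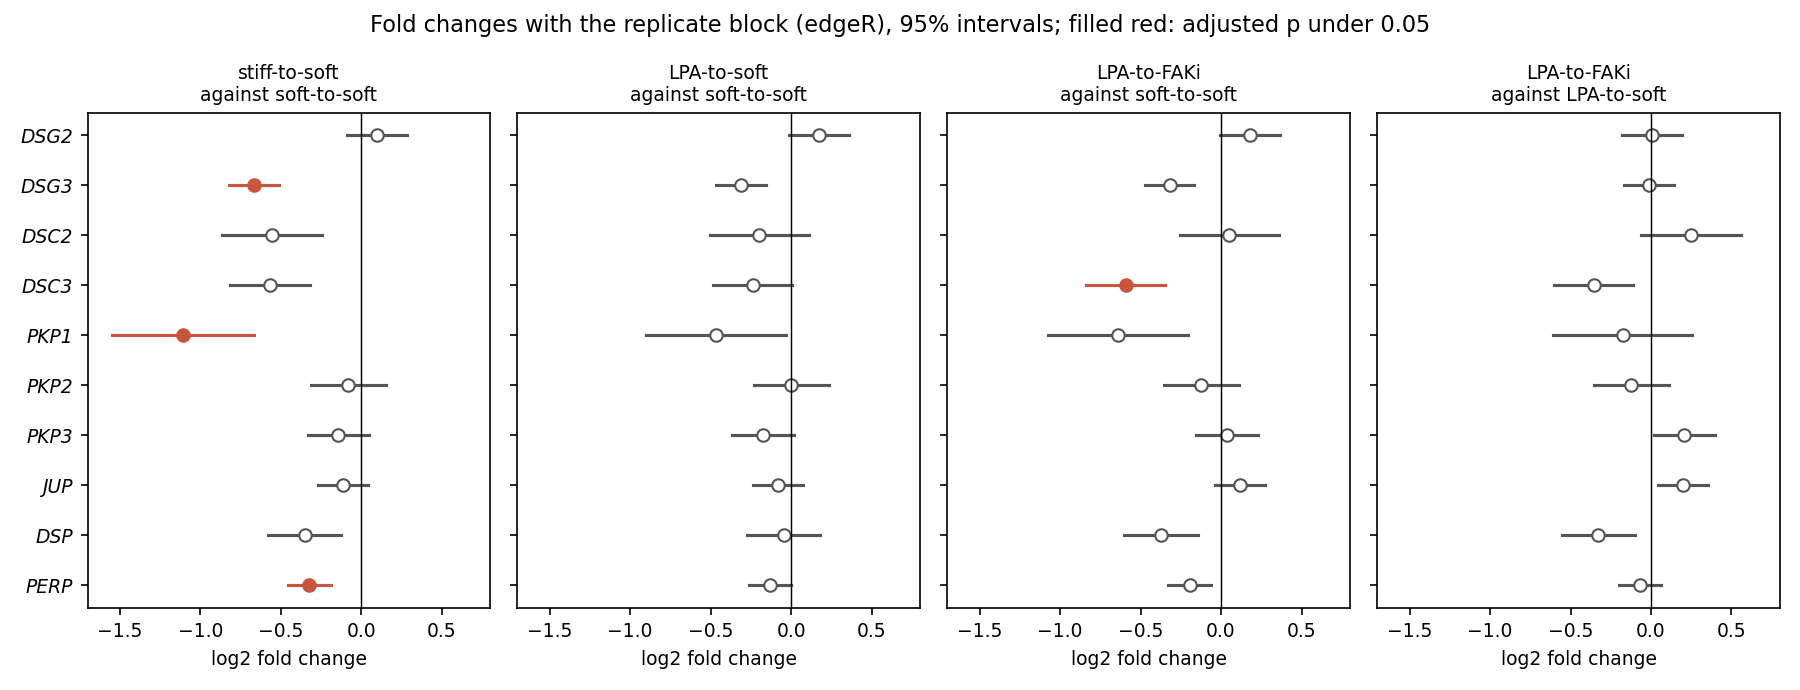
Log2 fold change of each gene (x axis) with its 95% interval in 4 comparisons, from edgeR with replicate number as a block. Filled red points have an adjusted p under 0.05 over all genes. DSG3 (-0.66), PKP1 (-1.10) and PERP (-0.32) pass in stiff-to-soft against the soft-to-soft control and DSC3 (-0.59) in LPA-to-FAKi against soft-to-soft.

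After conditioning with LPA and a day on soft gels without it, no desmosome gene passed the test against soft-to-soft, and 0.0% of all genes did, with or without the block. DSG3 had 164.1, 52.9 and 61.8 CPM in LPA-to-soft replicates 1, 2 and 3, lower than soft-to-soft in each pair, and its log2 fold change with the block was -0.31 ± 0.070 (adjusted p = 0.354, edgeR). PKP1 had 341.4, 139.8 and 132.7 CPM in the same libraries, also lower in each pair (-0.46 ± 0.20, adjusted p = 0.609). DSG2, the desmoglein of simple epithelia, had 137.6, 121.4 and 122.7 CPM in LPA-to-soft replicates 1, 2 and 3, against 106.3, 121.3 and 109.5 CPM in soft-to-soft replicates 1, 2 and 3 (0.18 ± 0.085, adjusted p = 0.658). Lower in 3 of 3 pairs were 7 genes (DSG3, DSC2, DSC3, PKP1, PKP3, JUP and PERP), against 18.3% of all genes. With an unadjusted p under 0.05 there were 2 of 10 genes, against 7.97% of all genes, and without the block 0 of 10, against 1.37%. The comparisons with soft-to-soft all share its 3 libraries, so a library that stands apart there moves each of them.

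With the block, DSC3 RNA was called lower in cells conditioned with LPA and replated with the FAK inhibitor than in soft-to-soft cells. DSC3 had 88.0, 44.9 and 53.5 CPM in LPA-to-FAKi replicates 1, 2 and 3, against the soft-to-soft levels of 165.2, 66.9 and 66.1 CPM in replicates 1, 2 and 3. The library treated with inhibitor was the lower in each pair, with log2 differences of -0.91, -0.58 and -0.31 in numbers 1, 2 and 3, and the groups overlapped. With the block its log2 fold change was -0.59 ± 0.11 (95% interval -0.84 to -0.35, adjusted p = 0.0468, edgeR). The call held without LPA-to-soft replicate 1 or LPA-to-FAKi replicate 3 and was lost without any one of the other 10 libraries (adjusted p up to 0.170). It was also lost without soft-to-soft replicates 1 and 2 together (-0.39 ± 0.15, adjusted p = 0.564), and when only these 2 conditions were fitted. DSC3 was thus the 1 gene of 10 that fell, where 0.408% of all genes fell and 0.564% changed in either direction. None passed without the block, where DSC3 was at -0.68 ± 0.52 and 0.0% of all genes passed. The unadjusted p was under 0.05 for 5 of 10 genes with the block, against 16.6% of all genes. Without it that held for 0 of 10, against 3.55% of all genes.

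Among the other cadherins, DSG3 had 164.3, 52.5 and 60.9 CPM in LPA-to-FAKi replicates 1, 2 and 3, and its log2 fold change against soft-to-soft was -0.32 ± 0.070 (adjusted p = 0.0732, edgeR with the block). DSC2, the partner of DSC3 in the cluster, had 76.3, 31.7 and 21.9 CPM in LPA-to-FAKi replicates 1, 2 and 3, against 53.0, 35.9 and 26.0 CPM in soft-to-soft replicates 1, 2 and 3. The number 1 library was thus higher and the other pairs lower, and the log2 fold change was 0.051 ± 0.14 (adjusted p = 0.883). DSG2 was at 0.18 ± 0.085 (adjusted p = 0.314).

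Among the plaque genes and PERP, PKP1 had 246.5, 140.2 and 123.3 CPM in LPA-to-FAKi replicates 1, 2 and 3. Its log2 fold change against soft-to-soft was -0.64 ± 0.20 (adjusted p = 0.153, edgeR with the block). DSP was at -0.37 ± 0.10 (adjusted p = 0.130) and PERP at -0.20 ± 0.060 (adjusted p = 0.149), both lower in each pair. PKP2 (-0.12 ± 0.11), PKP3 (0.036 ± 0.087) and JUP (0.11 ± 0.071) had adjusted p-values of 0.443 or more. In all, 5 genes (DSG3, DSC3, PKP1, DSP and PERP) were lower in 3 of 3 pairs, against 17.7% of all genes, and JUP was higher in 3 of 3 pairs, against 17.4%.

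Set directly against LPA-to-soft, which had the same conditioning, LPA-to-FAKi called none of the 10 genes, and 0.0% of all genes, with or without the block (4 of 10 with an unadjusted p under 0.05, against 22.3% of all genes, with the block, and 0 of 10 against 5.43% without). DSC3 was at -0.36 ± 0.11 and DSP at -0.33 ± 0.10 on the log2 scale, each lower in 3 of 3 pairs with an adjusted p of 0.115 (edgeR with the block). JUP was at 0.20 ± 0.071 (adjusted p = 0.142) and PKP3 at 0.21 ± 0.087 (0.194), each higher in 3 of 3 pairs. DSC2 was at 0.25 ± 0.14 (adjusted p = 0.319) and DSG3 had almost equal levels in both groups, as its values above show. Genes lower in 3 of 3 pairs were 2 of 10 and genes higher in 3 of 3 pairs were 2 of 10, against 22.2% and 22.9% of all genes, so neither count exceeds the background.

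The routes into the learned class were also compared with each other. Stiff-to-soft against LPA-to-soft called 0 of 10 genes and 0.00648% of all genes with the block, and 0 of 10 and 0.0% without (6 of 10 with an unadjusted p under 0.05, against 9.42% of all genes, with the block, and 0 of 10 against 1.39% without). DSG3 (-0.35 ± 0.070, adjusted p = 0.333) and PKP1 (-0.64 ± 0.20, adjusted p = 0.452) were lower in stiff-to-soft libraries in each pair, as were DSC2, DSC3, DSP and PERP, 6 of 10 genes against 16.8% of all genes. The drop after stiff conditioning was therefore not shown to differ from the smaller values after LPA. Against LPA-to-FAKi, stiff-to-soft called 0 of 10 genes, with 0.0324% of all genes called with the block and 0.0% without. DSG3 came nearest (-0.34 ± 0.070, adjusted p = 0.0862) and DSC2 was at -0.60 ± 0.14 (adjusted p = 0.128). Lower in 3 of 3 pairs were 5 genes (DSG3, DSC2, PKP3, JUP and PERP), against 19.3% of all genes. The unadjusted p was under 0.05 for 4 of 10 genes with the block, against 12.5% of all genes, and for 0 of 10 without, against 2.94%.

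Learned against not learned, the contrast the series is built on, called 0 of 10 genes, with 0.00648% of all genes called with the block and 0.0% without. The largest differences were those of PKP1 (-0.46 ± 0.22, adjusted p = 0.518) and DSC2 (-0.39 ± 0.12, adjusted p = 0.326, edgeR with the block). The unadjusted p was under 0.05 for 4 of 10 genes with the block, against 9.94% of all genes, and for 0 of 10 without, against 2.89%. Tested for any difference among the 4 conditions, DSG3 alone of the 10 passed with the block (adjusted p = 0.0197), where 0.214% of all genes did, and 0 of 10 and 0.0% passed without it (0 of 10 with an unadjusted p under 0.05, against 2.25% of all genes). With soft-to-soft replicates 1 and 2 left out, DSG3 passed as well (adjusted p = 0.0354). Its call was lost in 5 of 12 fits that left out 1 library (replicate 2 or 3 of stiff-to-soft, 3 of LPA-to-soft, 2 of LPA-to-FAKi or 3 of soft-to-soft, adjusted p up to 0.109). DSC3 (0.071), PKP1 (0.0914) and PERP (0.0959) followed.

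The order of the conditions within a replicate number was much alike for several genes. Stiff-to-soft was the lowest of the 4 conditions in 18 of 30 cases (10 genes in 3 numbers) and soft-to-soft the highest in 18 of 30, which is 60.0% each, against 23.8% and 25.9% over all genes tested. The 10 genes come from the same libraries and many vary together, so the 30 cases are not independent and the shares are a description. DSG3, DSC2 and PERP were lowest in stiff-to-soft in all 3 numbers, as were 2.3% of all genes. DSG3, DSC3, PKP1 and PERP were highest in soft-to-soft in all 3 numbers, against 3.15% of all genes, and JUP was highest in LPA-to-FAKi in all 3, against 5.27%. With the mean of each replicate number taken off, the 7 genes that varied with replicate number correlated with each other over the 12 libraries with a median r of 0.67 (range -0.13 to 0.92 over 21 pairs of genes). Over all 10 genes the median was 0.35 (range -0.54 to 0.92 over 45 pairs). This describes these libraries and is given without a test because all genes share them. DSC3 and DSP were closest (r = 0.92), and DSG2 ran against DSC3 (r = -0.54).

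Ratios between related forms within a library do not depend on library scaling. These ratios were chosen after the values were seen and carry no test. DSG3 over DSG2, in CPM per kb, was 1.13, 0.373 and 0.490 in stiff-to-soft replicates 1, 2 and 3, and 1.93, 0.681 and 0.770 in the soft-to-soft libraries 1, 2 and 3. It was 1.34, 0.488 and 0.564 in LPA-to-soft libraries and 1.23, 0.495 and 0.587 in LPA-to-FAKi libraries, in the same order of replicates. The stratified form was thus a smaller part of the desmoglein RNA in stiff-to-soft than in soft-to-soft cells in each pair, with the LPA conditions between. PKP1 over PKP2 was 4.15, 1.10 and 1.33 in stiff-to-soft replicates 1, 2 and 3, and 7.64, 3.11 and 2.27 in the soft-to-soft libraries 1, 2 and 3. DSC3 over DSC2 was 2.04, 2.50 and 4.33 in LPA-to-FAKi replicates 1, 2 and 3, against 5.58, 3.07 and 4.41 in LPA-to-soft replicates 1, 2 and 3, with the gap largest in number 1. DSP over JUP was 0.176, 0.160 and 0.172 in LPA-to-FAKi replicates 1, 2 and 3, against 0.302, 0.234 and 0.203 in LPA-to-soft replicates 1, 2 and 3. The LPA-to-FAKi and LPA-to-soft groups did not overlap. The ratio was 0.264, 0.171 and 0.180 in stiff-to-soft replicates 1, 2 and 3, which overlaps the LPA-to-FAKi values. In soft-to-soft replicates 1, 2 and 3 it was 0.264, 0.247 and 0.203.

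**Figure D4:**
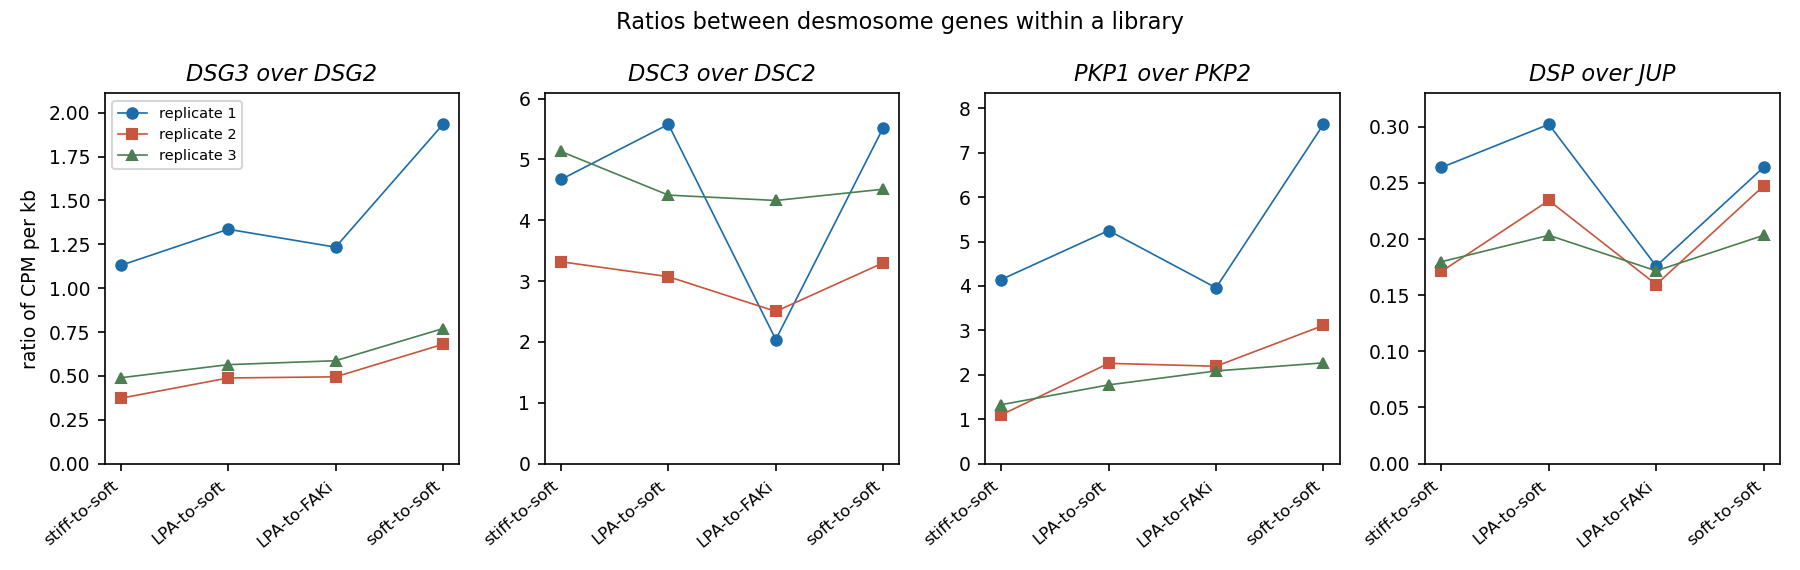
Ratio of CPM per kb between related genes (y axis, linear from 0, own range in each panel) in the 4 conditions, 1 point per library, with lines joining libraries of the same replicate number. DSG3 over DSG2 and PKP1 over PKP2 are lower in stiff-to-soft than in soft-to-soft in each number, and DSP over JUP is lowest in LPA-to-FAKi in replicate 1 (0.176), replicate 2 (0.160) and replicate 3 (0.172).

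Other desmosomal forms were scarcely detected. DSG1 reached 0.127 CPM, DSG4 0.281 CPM and DSC1 0.117 CPM at most, and CDSN, which encodes corneodesmosin of cornified cells, reached 1.02 CPM. PKP4, a relative found at several junctions, ranged from 111.5 to 134.6 CPM. Of these 5 genes, 3 (DSC1, CDSN and PKP4) passed the filter on low counts, and 0 of the 3 passed a test between conditions with or without the block. Among 11 adherens junction genes, 0 passed between conditions. PVRL1, which encodes nectin-1, had the largest difference after stiff conditioning (-0.43 ± 0.085 against soft-to-soft, adjusted p = 0.055, edgeR with the block), followed by CDH1, which encodes E-cadherin (0.30 ± 0.10, adjusted p = 0.273).

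Of 12 keratin filament and linker genes, 2 fell in stiff-to-soft against the soft-to-soft control with the block and 0 without. Of all genes, 0.343% fell with the block in this comparison and 0.0% passed without it. KRT14, the basal keratin, had 592.4, 100.5 and 117.2 CPM in stiff-to-soft replicates 1, 2 and 3, against 1051, 683.0 and 292.0 CPM in soft-to-soft replicates 1, 2 and 3 (-1.68 ± 0.32, adjusted p = 0.048). KRT17, a keratin of activated keratinocytes, was at -0.75 ± 0.11 (adjusted p = 0.0185). Of 8 hemidesmosome genes 0 passed between conditions, and the largest differences were those of ITGB4 (-0.34 ± 0.13) and COL17A1 (-0.31 ± 0.19). Of 15 regulators and proteases of junctions, 2 fell in stiff-to-soft against the soft-to-soft control with the block and 0 without. The same 2 fell with the block in LPA-to-FAKi against soft-to-soft, where 0.408% of all genes fell, and 0 without. Both comparisons share the soft-to-soft libraries. SNAI2, a zinc finger repressor of cadherin genes, was at -0.67 ± 0.089 (adjusted p = 0.012) and at -0.79 ± 0.089 (adjusted p = 0.0111) in these comparisons with the block. ZNF750, a factor of keratinocyte differentiation, was at -1.06 ± 0.15 (adjusted p = 0.017) and at -0.93 ± 0.15 (adjusted p = 0.0295). After stiff conditioning, the calls of KRT14, KRT17, SNAI2 and ZNF750 were each lost without stiff-to-soft replicate 2, stiff-to-soft replicate 3 or soft-to-soft replicate 3. That of ZNF750 was lost without soft-to-soft replicate 1 too, and that of KRT14 without LPA-to-FAKi replicate 2 or any LPA-to-soft library (adjusted p up to 0.259 for KRT14). In LPA-to-FAKi against soft-to-soft, SNAI2 lost its call without soft-to-soft replicate 3 (adjusted p = 0.0749, edgeR with the block). ZNF750 lost its call there without replicate 3 of stiff-to-soft, 2 of LPA-to-soft, 2 of LPA-to-FAKi or 1 or 3 of soft-to-soft (adjusted p up to 0.139). Without soft-to-soft replicates 1 and 2 together, which leaves 1 soft-to-soft library, these calls did not hold. The log2 fold changes with the block were then -1.14 for KRT14, -0.71 for KRT17, -0.68 for SNAI2 and -1.07 for ZNF750 after stiff conditioning. In LPA-to-FAKi against soft-to-soft they were -0.80 for SNAI2 and -0.95 for ZNF750. These 2 conditions differ in the LPA conditioning as well as in the inhibitor.

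By Pearson's r of log2 CPM over the 12 libraries, the gene outside the 10 most like DSG3 was TMPRSS11D, an airway and oral epithelial protease (r = 0.988, and 0.959 with the mean of each replicate number taken off). For PKP1 it was ATP12A, a proton and potassium pump (r = 0.984 and 0.962). For PERP it was NAB1 (r = 0.982), and SOX2 with the number means taken off (r = 0.940). For DSC3 it was RGCC (r = 0.991), and SESN3 with the number means taken off (r = 0.993). For DSP it was DUOX1 (r = 0.980), and JAG1 with the means taken off (r = 0.957). For JUP it was AIM1L both ways (r = 0.971 and 0.930), and for DSC2 it was C1orf116 (r = 0.977) and ZFP36L2 (r = 0.961). For the steadier genes it was HEATR3 and POLR3D for DSG2 (r = 0.910 and 0.960), ZNF551 both ways for PKP2 (r = 0.927 and 0.933), and SNORD55 and PEAR1 for PKP3 (r = 0.954 and 0.962). These are the best of 15437 genes and share libraries and depth with the gene they were matched to, so they are a description.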

How the data were processed

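Raw counts by gene symbol, as whole numbers, and a second table on a log2 scale were deposited by the authors. The log2 table was the log2 of a scaled count plus a constant, added nothing and was not used. STAR, HTSeq, DESeq2, cutadapt, FastQC and the build hg19 are named without versions, per the submitters' processing notes. The strand setting of the counting is not given in the sources used here, so reads of antisense genes at DSG2 and DSC2 and of a pseudogene at PKP2, which are not in the count table, cannot be told apart. Symbols turned into dates held 0.178% of the counts, and 0 pairs of libraries were identical.

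The test of the counts was that of edgeR 4.0.16 under R 4.3.3 (quasi-likelihood F test, TMM scaling, its low-count filter by 4 conditions, 15437 genes, Benjamini-Hochberg adjustment over all, calls under an adjusted p of 0.05). Fits used all 12 libraries, the class contrast a model of 2 classes. The main fit has no replicate block. The fit with the block is given beside it where it changes a call. The numbers come from the labels, without a meaning. After condition means were taken off, same-numbered libraries correlated with r of 0.312 to 0.659 over 18 pairs, above the limit of 0.1, and others with -0.517 to 0.037 over 36 pairs, so the numbers pair the samples.

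CPM is TMM-scaled, log2 CPM used a prior count of 2, and levels per kb used merged exon lengths of GENCODE. Members, lists and motifs were chosen with earlier results of these data known. Named outside the 10 genes are list genes called with or without the block, else the 2 largest changes of a list in stiff-to-soft against the control, and the genes nearest by r. Alternatives were RLE scaling, no filter, DESeq2 1.42.0, voom of limma 3.58.1, halved counts, 2 conditions only, and libraries left out.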

Additional observations from a re-analysis of the deposited data

Results flagged for a closer look

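In groups of 6 libraries (the learned and the not learned class, 20 groups over the 10 genes), the highest and lowest library were compared with the nearest other one, and chance flags about 1 in 20 groups. DSG2 in LPA-to-FAKi replicate 1, at 149.2 CPM, stood above the other not learned libraries by 0.649 of the whole range of the class, which is past Dixon's 95% critical value. DSC3 in soft-to-soft replicate 1, at 165.2 CPM, stood above the others by 0.642 of the range. Both are number 1 libraries, the number in which 7 of the 10 genes were highest in each condition.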

How the results depend on the processing

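With replicate number as a block, 3 genes were called in stiff-to-soft against the soft-to-soft control, 1 in LPA-to-FAKi against soft-to-soft and 1 for any difference among the 4 conditions, against 0 without it, and the block changed no other call. In stiff-to-soft against the soft-to-soft control the block gave 4 calls with RLE scaling, no filter or voom, 5 with DESeq2 and 3 with counts halved. In LPA-to-FAKi against soft-to-soft it gave 1 with RLE scaling, voom or counts halved, 2 with no filter and 3 with DESeq2. For any difference it gave 1 with RLE scaling, voom, counts halved or without soft-to-soft replicates 1 and 2, 3 with no filter and 6 with DESeq2. DESeq2 with the block also called 1 in LPA-to-soft against soft-to-soft, 2 in LPA-to-FAKi against LPA-to-soft, 1 in stiff-to-soft against LPA-to-soft and 2 in stiff-to-soft against LPA-to-FAKi, and in the last 1 was called without soft-to-soft replicates 1 and 2 or with 2 conditions only. DESeq2 with the block called more of all genes than edgeR with the block did. These were 443 of 14539 in stiff-to-soft against the soft-to-soft control and 704 of 15137 in LPA-to-FAKi against soft-to-soft. For any difference they were 1297 of 14239, and in LPA-to-soft against soft-to-soft 72 of 11546. In LPA-to-FAKi against LPA-to-soft they were 1231 of 13042. Stiff-to-soft gave 66 of 14539 against LPA-to-soft and 346 of 15437 against LPA-to-FAKi. Leaving out 1 library gave 0 calls in each comparison of conditions without the block. With it, there were 1 to 5 calls in stiff-to-soft against the soft-to-soft control, 0 to 1 in LPA-to-FAKi against soft-to-soft and in stiff-to-soft against LPA-to-FAKi, and 0 to 2 for any difference. RLE scaling, DESeq2 and voom reversed no fold change of the genes named.

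Without soft-to-soft replicates 1 and 2 and without the block, several log2 fold changes reversed. Against soft-to-soft, stiff-to-soft was then at 0.037 for DSC2, 0.0078 for DSC3, 0.058 for PKP3, 0.12 for JUP and 0.17 for DSP, LPA-to-soft at 0.29 for DSG3 and 0.43 for PKP1, and LPA-to-FAKi at 0.29 for DSG3, 0.17 for PKP1, 0.11 for DSP and 0.0059 for PERP. PKP1 in learned against not learned was at 0.075. With the block as well, PKP3 was at 0.0022 in stiff-to-soft and DSC2 at -0.0043 in LPA-to-FAKi against soft-to-soft. With the block and 1 library left out, reversals were those of DSG2 (-0.0033 without soft-to-soft replicate 1) and PKP2 (0.040 without soft-to-soft replicate 2) in stiff-to-soft, and in LPA-to-FAKi those of DSC2 (-0.18 without LPA-to-FAKi replicate 1, -0.069 without soft-to-soft replicate 1) and PKP3 (-0.041 without LPA-to-FAKi replicate 1, -0.018 and -0.037 without soft-to-soft replicates 1 and 3), all against soft-to-soft.

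Without the block, leaving out 1 library moved the log2 fold change against soft-to-soft from -1.12 to 0.0087 for DSC3, -0.17 to 0.018 for PKP2 and -0.28 to 0.093 for JUP in stiff-to-soft, from -0.96 to 0.32 for DSG3 and -1.04 to 0.067 for PKP1 in LPA-to-soft, and in LPA-to-FAKi from -0.98 to 0.31 for DSG3, -0.52 to 0.50 for DSC2, -0.095 to 0.10 for PKP3, -0.11 to 0.34 for JUP and -0.47 to 0.090 for PERP. In LPA-to-FAKi against LPA-to-soft the range was -0.82 to 0.16 for DSC3, -0.64 to 0.020 for DSP, -0.32 to 0.70 for DSC2 and -0.022 to 0.39 for JUP. It was -1.05 to 0.34 for DSG3 and -1.48 to 0.086 for PKP1 in stiff-to-soft against LPA-to-soft, and -1.03 to 0.36 for DSG3 and -1.14 to 0.0058 for DSC2 in stiff-to-soft against LPA-to-FAKi. The cause of these changes was not tested. Limits: 3 libraries a condition with no stated meaning of replicate number, 1 control condition whose libraries enter 3 comparisons, and calls of PKP1, PERP and DSC3 that a single library can end. Counts of the 10 genes were high, so depth limits only the rare relatives such as DSG1.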
